A study of Mus musculus with 10 samples.

Results

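The tissue isoforms of 5 glycolytic enzymes are encoded by 10 genes described here, the hexokinases Hk1 and Hk2, the phosphofructokinases Pfkl, Pfkm and Pfkp, the aldolases Aldoa and Aldoc, the enolases Eno1 and Eno3, and the pyruvate kinase Pkm. They were taken by gene name from the deposited tables, and all 10 were found in all 10 tumors among 35275 listed genes. All 10 also passed the filter on low counts, which left 15176 genes for testing. RNA-seq was performed on 10 cutaneous mouse tumors. By their labels 5 were LDHA-/- (here Ldha-null) and 5 Wild type, and the series description gives 1 mouse for each. In the study, squamous cell carcinoma was induced from hair follicle stem cells by K15CrePR or Lgr5CreER, which acted on floxed p53 among other alleles, or by DMBA and TPA. The Ldha-null groups also carried floxed Ldha. Which of these models gave the sequenced tumors was not stated in the sources at hand. The study used young adult mice of both sexes, and neither the age nor the sex behind each sequenced tumor was given. Some Ldha-null tumors of the study were mosaic for the deletion, and the mice had a mixed C57BL6 and FVB background. The labels name squamous carcinoma cells, but RNA was extracted from whole fresh tumors without sorting. Fewer cells of a type and less RNA per cell cannot be told apart in any value below.

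Glycolysis breaks glucose down to pyruvate, and several of its steps are run by families of enzymes whose members are encoded by separate genes and favoured by different tissues. Hexokinase traps glucose in the cell by adding a phosphate, phosphofructokinase commits the sugar to the pathway, aldolase splits it into smaller sugars, enolase makes phosphoenolpyruvate, and pyruvate kinase turns it into pyruvate, the substrate of lactate dehydrogenase. Skeletal muscle is known for Hk2, Pfkm, Aldoa and Eno3, liver for Pfkl, brain for Hk1 and Aldoc, and Eno1, Pfkp and the M2 form of Pkm are widespread in proliferating and epithelial cells.

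Libraries held 12969508 to 17694201 counts, and the 10 genes together took 0.365% to 0.892% of the counts in 9 tumors and 3.35% in Ldha-null tumor 1. Ldha, the targeted gene, ranged from 246 to 1883 FPKM among tumors labelled Ldha-null and from 340 to 2824 FPKM among the wild-type ones (exact two-sided permutation test on log2 CPM, p = 0.857). Its level therefore did not tell the labels apart, and every genotype comparison below is a comparison of labels. The table does not show which part of the gene was removed, and counts cover the whole gene. There were 3 tumors that stood apart in marker genes. Ldha-null tumor 1 held all 12 of 12 skeletal muscle markers at a summed level of 116151 FPKM, or 14.2% of its counts. In the other 9 tumors they summed to 53.2 to 279 FPKM and took at most 0.0314% of the counts. Ckm, the creatine kinase of muscle, reached 5646 FPKM there, against 1.13 to 4.19 FPKM elsewhere. Acta1, skeletal actin, reached 11245 FPKM, against 4.68 to 46.6 FPKM. Its 5 mesenchymal markers summed to 293 FPKM and its 4 leukocyte markers to 75.4 FPKM, the lowest of all tumors. In Ldha-null tumor 3 and wild-type tumor 5 the 7 keratinocyte markers summed to 34766 and 34972 FPKM, against 224 to 5394 FPKM in the other 8 tumors. Their mesenchymal markers summed to 2296 and 3982 FPKM, against 6361 to 9981 FPKM in the 7 tumors that remain once Ldha-null tumor 1 is set aside too. Ldha-null tumor 3 also held 3 erythroid markers at 58975 FPKM, against 251.7 to 1816 FPKM elsewhere. Levels below are FPKM, the authors' fragments per kilobase of transcript, scaled to library size. They are not corrected for library make-up, so RNA that takes many counts in a tumor lowers the FPKM of its other genes. Muscle markers alone took 14.2% of the counts of Ldha-null tumor 1, so its FPKM ranks and folds against other tumors need care. Log2 CPM values carry TMM factors, which adjust for make-up. On that scale Ldha was highest in Ldha-null tumor 1 (11.6, against 11.4 in wild-type tumor 5). Shares and ratios within a tumor do not depend on this scaling. Comparisons between genes depend on the transcript length used, as shown for the order of isoforms. Genotype differences are log2 fold changes of Ldha-null over wild-type tumors from edgeR on the counts.

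**Figure D1:**
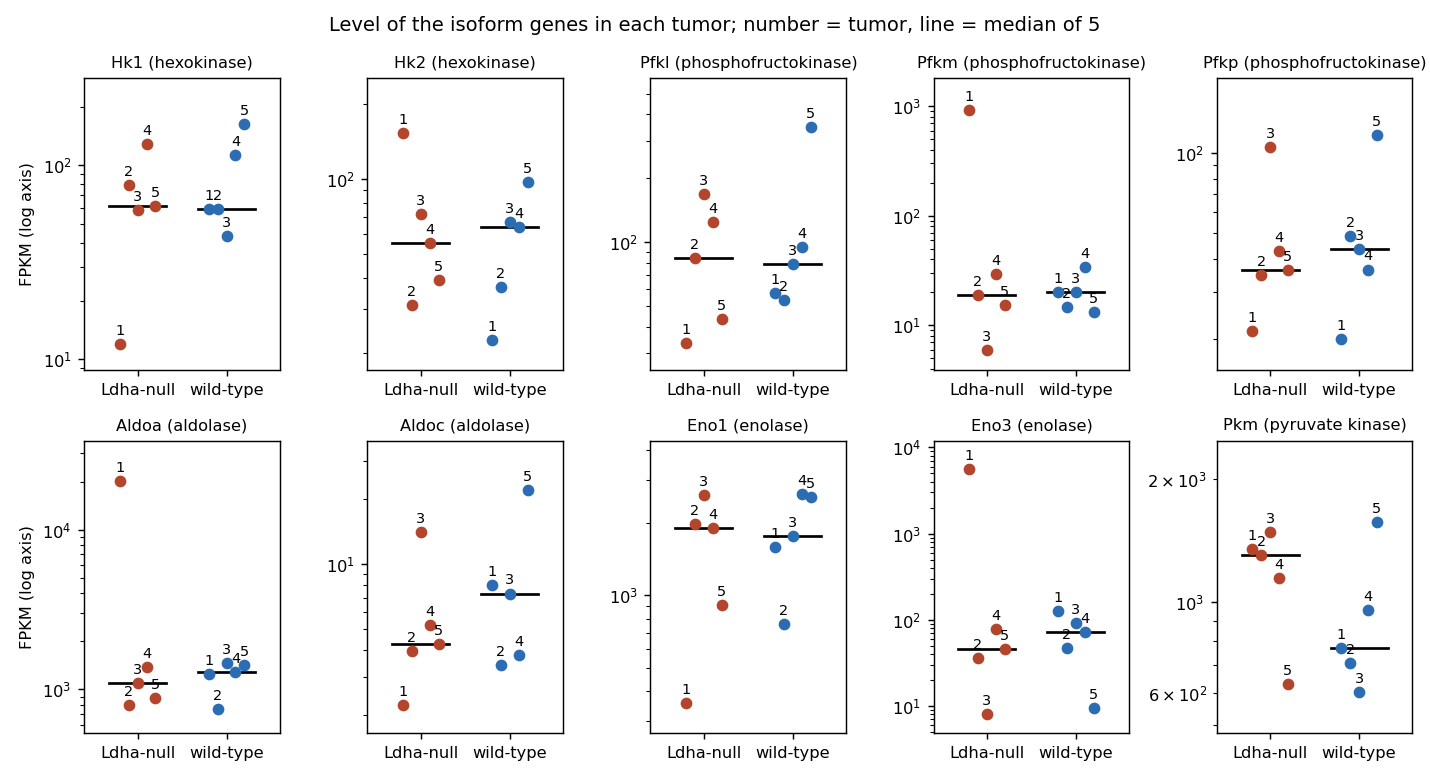
Level of each of the 10 isoform genes in FPKM on a log axis, 1 panel per gene, with 5 Ldha-null tumors in red and 5 wild-type tumors in blue, each point numbered by tumor, and a line at the median of the 5. Ldha-null tumor 1 lies far above the other tumors for Pfkm (929 FPKM), Aldoa (20260 FPKM) and Eno3 (5678 FPKM) and below all of them for Hk1 (12.0 FPKM) and Eno1 (356 FPKM), and the groups overlap in every panel.

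Hexokinase came from Hk1 and Hk2 at similar levels in most tumors, with Hk1 the higher in 7 of 10. Hk1 (ENSMUSG00000037012, mm10 chr10:62268855-62379908, minus strand), the hexokinase of brain and red cells that most tissues also carry, stood at 12.0, 79.6, 58.7, 129 and 61.8 FPKM across Ldha-null tumors 1 to 5. Across wild-type tumors 1 to 5 the values were 59.9, 59.4, 43.2, 113 and 164 FPKM. Ldha-null tumor 1 was lowest, 5.14-fold below the median of the other 9, wild-type tumor 5 was highest, and the groups overlapped. Group means were 68.3 ± 18.9 FPKM (Ldha-null) and 88.0 ± 22.5 FPKM (wild-type), with the SEM over 5 tumors here and below. The log2 fold change was -0.39 (95% interval -1.49 to 0.72), and -0.16 once Ldha-null tumor 1 was dropped. Hk1os, a transcript antisense to Hk1 over 23112 bases, had 5 to 37 counts against 271 to 3196 for Hk1. The library preparation was not described as keeping strand, so reads of the pair cannot be told apart where they overlap.

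Hk2 (ENSMUSG00000000628, chr6:82725025-82774454, minus strand), the insulin- and hypoxia-responsive hexokinase of muscle, fat and many tumors, gave 154, 31.2, 72.0, 55.2 and 39.0 FPKM for Ldha-null tumors 1 to 5. The values for wild-type tumors 1 to 5 were 22.4, 36.9, 67.1, 64.1 and 97.2 FPKM. Ldha-null tumor 1 was highest, at 2.78 times the median of the others, wild-type tumor 5 came next and wild-type tumor 1 was lowest, so the groups overlapped. The means were 70.2 ± 22.0 and 57.5 ± 13.0 FPKM, and the log2 fold change was 0.71 (95% interval -0.74 to 2.16), which became -0.21 once Ldha-null tumor 1 was dropped. As a share of summed hexokinase FPKM, Hk2 made 92.7% in Ldha-null tumor 1, 55.1% in Ldha-null tumor 3 and 60.9% in wild-type tumor 3. In the other 7 tumors it made 27.2% to 38.7%, and both genotypes were found in that range. The summed level of both genes ran from 82.3 FPKM in wild-type tumor 1 to 262 FPKM in wild-type tumor 5, and Ldha-null tumor 1, at 166 FPKM, lay inside that range. In FPKM its summed hexokinase was thus within that of the other tumors, while its isoform make-up was not. The sum was not examined with TMM factors, so its place among the tumors was not resolved.

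The promoter of Hk2 is shown because the gene is a textbook target of hypoxia-inducible factor, whose core motif is ACGTG or GCGTG. In the RefSeq promoter window (GRCm38.p6, 250 bases before to 50 after the start, chr6:82774405-82774704, minus strand, printed 5′ to 3′ along the gene), capitals mark ACGTG or GCGTG on either strand, CACGT and CACGC being their reverse complements.
Hk2: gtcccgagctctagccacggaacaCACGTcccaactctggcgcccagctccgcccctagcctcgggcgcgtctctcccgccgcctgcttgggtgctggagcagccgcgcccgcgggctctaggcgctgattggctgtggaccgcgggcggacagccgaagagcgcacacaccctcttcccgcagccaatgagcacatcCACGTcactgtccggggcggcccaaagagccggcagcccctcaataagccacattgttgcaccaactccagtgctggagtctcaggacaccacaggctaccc
ACGTG occurred 2 times in that window and GCGTG, the form of the core that differs from it in the first letter, did not occur. Of 32851 promoter windows of the same length, 19.6% held ACGTG and 32.4% held GCGTG on either strand. All 10 genes had a RefSeq window, 20 in all, of which 8 windows of 6 genes (Hk1, Hk2, Pfkm, Aldoa, Aldoc and Pkm) held ACGTG and 11 windows of 7 genes held GCGTG. Several of these windows were alternative starts of the same gene, and some overlapped, as for Aldoa and Pfkm. A site can therefore be counted more than once, and enrichment over all windows was not tested. The E-box CANNTG, which overlaps ACGTG where it reads CACGTG, was in 13 of the 20 windows and in 72.3% of all windows. A match to the MEF2 motif, named for a family of muscle transcription factors, was in 0 of the 20 windows and in 0.557% of all windows.

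Phosphofructokinase RNA was led by Pfkl in 9 tumors and by Pfkm in Ldha-null tumor 1. Pfkl (ENSMUSG00000020277, chr10:77986947-78010083, minus strand), the liver form, had levels of 33.7, 84.0, 169, 125 and 43.3 FPKM for Ldha-null tumors 1 to 5. Wild-type tumors 1 to 5 had 57.5, 53.8, 78.8, 94.6 and 349 FPKM. Wild-type tumor 5 and Ldha-null tumor 3 were the highest and, in FPKM, Ldha-null tumors 1 and 5 the lowest, with the groups overlapping. On log2 CPM with TMM factors Ldha-null tumor 1 (6.31) lay above wild-type tumors 1 (6.12) and 2 (6.04). Its group means of 90.9 ± 25.3 FPKM (Ldha-null) and 127 ± 56.1 FPKM (wild-type) gave a log2 fold change of -0.41 (95% interval -1.82 to 0.999).

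Pfkp (ENSMUSG00000021196, chr13:6579768-6648777, minus strand), the platelet form that many carcinomas express, stood at 21.3, 34.7, 105, 42.8 and 36.3 FPKM across Ldha-null tumors 1 to 5. Across wild-type tumors 1 to 5 the values were 19.9, 48.9, 43.6, 36.4 and 117 FPKM. The same pair, wild-type tumor 5 and Ldha-null tumor 3, was highest, and the other 8 tumors lay at or below 48.9 FPKM. The group means of 48.1 ± 14.7 and 53.1 ± 16.7 FPKM differed by a log2 fold change of -0.02 (95% interval -1.23 to 1.19). Pitrm1, which overlaps the end of Pfkp by 372 bases on the opposite strand, had 296 to 1297 counts against 574 to 2934 for Pfkp.

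Pfkm (ENSMUSG00000033065, chr15:98092589-98132447, plus strand), the form on which muscle relies, gave 929, 18.9, 5.99, 29.2 and 15.4 FPKM for Ldha-null tumors 1 to 5. The values for wild-type tumors 1 to 5 were 20.0, 14.5, 20.0, 33.7 and 13.1 FPKM. Ldha-null tumor 1 exceeded the median of the other tumors 49.2-fold, whereas in FPKM Ldha-null tumor 3 and wild-type tumor 5 were the lowest of all, the reverse of their place for Pfkl and Pfkp. On log2 CPM with TMM factors wild-type tumor 5 (5.31) lay above Ldha-null tumor 5 (5.19) and wild-type tumor 2 (5.22). Its group means were 200 ± 182 and 20.3 ± 3.64 FPKM, with 93.0% of the Ldha-null sum coming from tumor 1. The log2 fold change was 4.12 (95% interval 0.77 to 7.47, unadjusted p = 0.0205, edgeR), and -0.28 (95% interval -1.19 to 0.63) once that tumor was dropped. Senp1, on the opposite strand, overlaps Pfkm by 1156 bases and had 274 to 785 counts against 257 to 46042 for Pfkm. Reads in the shared bases could not be assigned by strand.

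In shares of summed phosphofructokinase FPKM, Pfkl made 3.43%, 61.1%, 60.2%, 63.5% and 45.6% in Ldha-null tumors 1 to 5 and 59.0%, 45.9%, 55.4%, 57.4% and 72.9% in wild-type tumors 1 to 5. Pfkm made 94.4%, 13.7%, 2.14%, 14.8% and 16.2% in the Ldha-null tumors and 20.5%, 12.4%, 14.0%, 20.5% and 2.74% in the wild-type tumors. Pfkp made the rest, 2.17% in Ldha-null tumor 1 and 20.5% to 41.7% in the other 9. Outside Ldha-null tumor 1 the liver form was thus the largest share in every tumor, and of all tumors the share of the muscle form was lowest in both that were rich in keratinocyte markers. Shares depend on the length by which counts are divided, and with the listed gene length Pfkm made 5.65% in Ldha-null tumor 3 and 7.14% in wild-type tumor 5, still the lowest of all. Pfkp was then above Pfkm in 3 of 10 tumors, against 8 of 10 in FPKM, so the rank of these forms was not resolved. The promoter windows of Pfkl (chr10:78009758-78010057) and Pfkp (chr13:6648722-6649021), both on the minus strand of GRCm38.p6, are shown because both genes were highest in the same 2 tumors, with capitals as for Hk2.
Pfkl: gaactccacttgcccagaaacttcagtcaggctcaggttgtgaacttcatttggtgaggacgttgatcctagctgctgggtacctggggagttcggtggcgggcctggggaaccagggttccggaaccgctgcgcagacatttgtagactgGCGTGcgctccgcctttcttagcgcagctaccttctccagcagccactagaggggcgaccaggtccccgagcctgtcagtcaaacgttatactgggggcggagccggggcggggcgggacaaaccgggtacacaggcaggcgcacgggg
Pfkp: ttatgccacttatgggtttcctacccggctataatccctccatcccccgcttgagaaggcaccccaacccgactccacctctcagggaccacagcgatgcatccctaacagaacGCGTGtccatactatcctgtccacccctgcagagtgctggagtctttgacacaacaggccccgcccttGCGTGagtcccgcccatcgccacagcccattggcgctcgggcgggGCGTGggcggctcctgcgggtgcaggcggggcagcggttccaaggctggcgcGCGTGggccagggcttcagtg
GCGTG occurred 1 time in the window of Pfkl and 4 times in that of Pfkp, and ACGTG in neither. In FPKM, Aldoc and Pkm were also highest in wild-type tumor 5 and Ldha-null tumor 3. Each of them had a window with ACGTG, which is not printed.

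**Figure D2:**
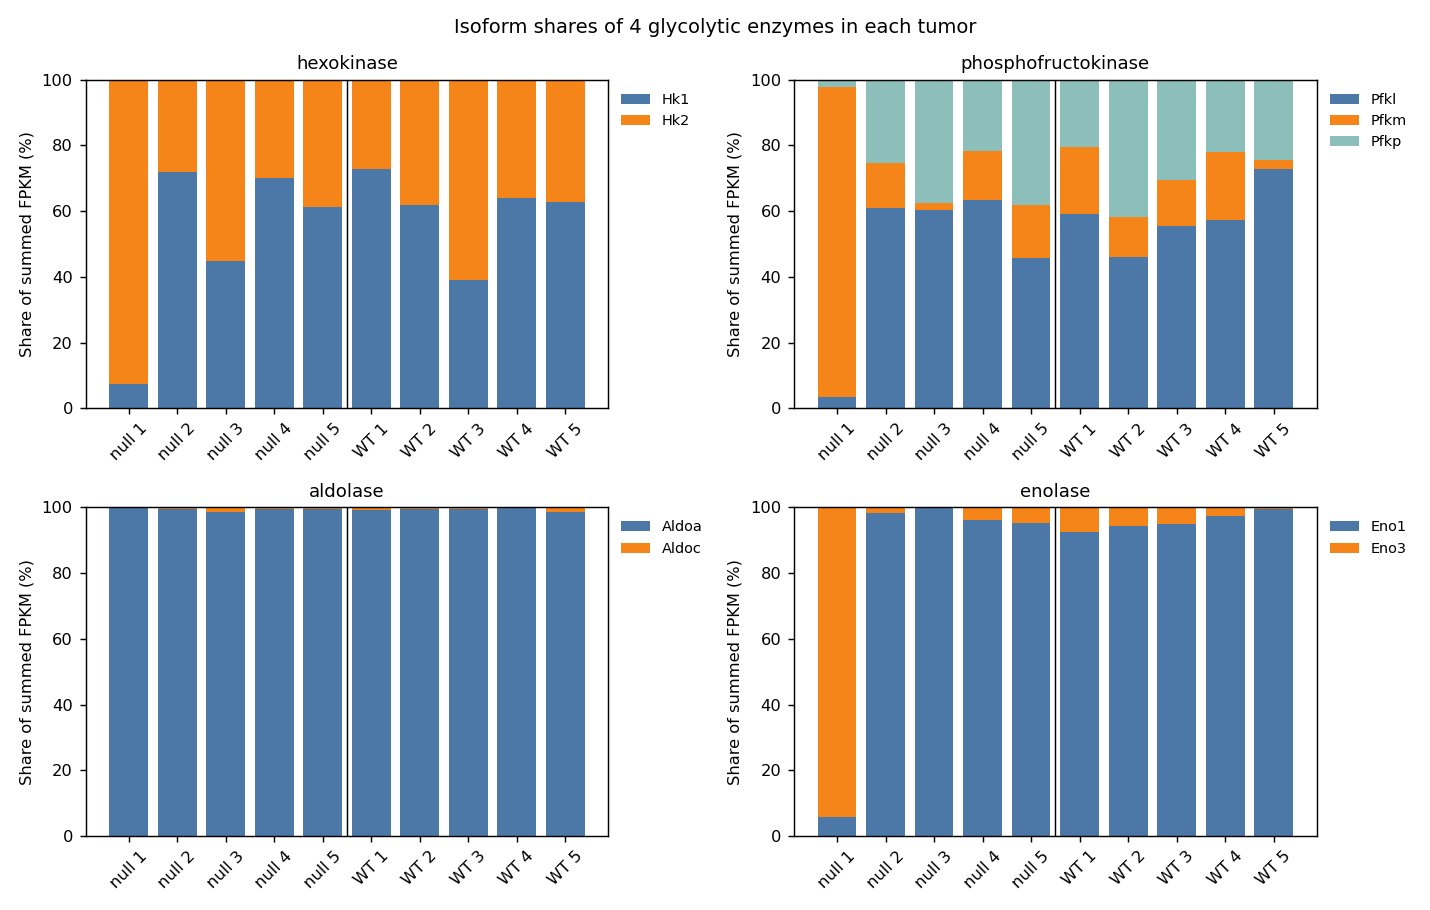
Share of each isoform in the summed FPKM of its enzyme (%) in each of 10 tumors, 1 panel per enzyme, with Ldha-null tumors (null) left and wild-type tumors (WT) right of the line. In Ldha-null tumor 1 Hk2, Pfkm and Eno3 make 92.7%, 94.4% and 94.1% of their enzyme, whereas Hk2 makes at most 60.9%, Pfkm at most 20.5% and Eno3 at most 7.44% in the other tumors, and aldolase is nearly all Aldoa everywhere.

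Aldolase was nearly all Aldoa in every tumor. Aldoa (ENSMUSG00000030695, chr7:126795234-126800751, minus strand), the aldolase of muscle and of most other tissues, had levels of 20260, 792, 1090, 1375 and 885 FPKM for Ldha-null tumors 1 to 5. Wild-type tumors 1 to 5 had 1247, 753, 1455, 1286 and 1412 FPKM. Ldha-null tumor 1 stood 16.2-fold above the median of the other 9, which differed among themselves by at most 1.93-fold, the narrowest spread of any of the 10 genes once that tumor was left out. The means were 4880 ± 3846 and 1231 ± 125 FPKM, with 83.0% of the Ldha-null sum from tumor 1. The log2 fold change was 2.73 (95% interval 0.19 to 5.27, unadjusted p = 0.0377, edgeR), and -0.25 (95% interval -0.94 to 0.44) once it was dropped. Aldoart1 and Aldoart2, retrogene copies of Aldoa, had 0 counts in all tumors.

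Aldoc (ENSMUSG00000017390, chr11:78322968-78327781, plus strand), the brain form, was the lowest of the 10 genes in every tumor but Ldha-null tumor 3 and wild-type tumor 5. Its values were 2.23, 3.95, 14.1, 5.25 and 4.28 FPKM for Ldha-null tumors 1 to 5, and 7.97, 3.41, 7.31, 3.80 and 22.0 FPKM for the wild-type tumors in the same order. Wild-type tumor 5 and Ldha-null tumor 3 were again highest, and in FPKM Ldha-null tumor 1 was lowest. On log2 CPM with TMM factors Ldha-null tumor 1 (2.20) was not lowest, wild-type tumor 2 being below it (1.88). Its means were 5.97 ± 2.10 and 8.90 ± 3.41 FPKM, and its log2 fold change was -0.46 (95% interval -1.90 to 0.98). Aldoc made 0.0110% of aldolase FPKM in Ldha-null tumor 1, with a 95% Clopper-Pearson interval of 0.00803% to 0.0147% from 45 counts, and 0.295% to 1.54% in the others, the highest share being that of wild-type tumor 5. Such intervals cover counting error only, and the widest of any share was 4.08 percentage points.

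Enolase showed the widest range of isoform shares, Eno3 making from 0.309% to 94.1% of its FPKM. Eno1 (ENSMUSG00000063524, chr4:150236721-150248879, plus strand), the enolase of most tissues, stood at 356, 1984, 2615, 1908 and 916 FPKM across Ldha-null tumors 1 to 5. Across wild-type tumors 1 to 5 the values were 1581, 762, 1761, 2633 and 2569 FPKM. Ldha-null tumor 1 was 5.36-fold below the median of the other tumors, and the other 4 Ldha-null tumors lay among the wild-type tumors. Its means of 1556 ± 405 and 1861 ± 346 FPKM gave a log2 fold change of -0.19 (95% interval -1.32 to 0.94).

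Eno3 (ENSMUSG00000060600, chr11:70657202-70662513, plus strand), the enolase of skeletal and heart muscle, gave 5678, 35.6, 8.11, 77.7 and 45.7 FPKM for Ldha-null tumors 1 to 5. The values for wild-type tumors 1 to 5 were 127, 46.8, 92.4, 72.3 and 9.37 FPKM. Ldha-null tumor 1 stood 121-fold above the median of the others, and Ldha-null tumor 3 and wild-type tumor 5 lay 8.90-fold and 7.71-fold below the median of the remaining 7. The means were 1169 ± 1127 and 69.6 ± 20.0 FPKM, and tumor 1 gave 97.1% of the Ldha-null sum. With all tumors the log2 fold change was 4.96 (95% interval 0.76 to 9.16, unadjusted p = 0.0249, edgeR), and on dropping Ldha-null tumor 1 it turned to -0.78 (95% interval -2.29 to 0.74). The Eno3 share of enolase was 94.1%, 1.76%, 0.309%, 3.92% and 4.76% in Ldha-null tumors 1 to 5 and 7.44%, 5.79%, 4.99%, 2.67% and 0.363% in wild-type tumors 1 to 5. The counting intervals of the lowest values, 0.254% to 0.374% in Ldha-null tumor 3 and 0.302% to 0.433% in wild-type tumor 5, overlapped each other and lay below the share in every other tumor. The promoter window of Eno3 (GRCm38.p6 chr11:70656926-70657225, plus strand) is shown because this gene had the widest range of all 10, and it held GCGTG 1 time, with no match to ACGTG or to the MEF2 motif.
Eno3: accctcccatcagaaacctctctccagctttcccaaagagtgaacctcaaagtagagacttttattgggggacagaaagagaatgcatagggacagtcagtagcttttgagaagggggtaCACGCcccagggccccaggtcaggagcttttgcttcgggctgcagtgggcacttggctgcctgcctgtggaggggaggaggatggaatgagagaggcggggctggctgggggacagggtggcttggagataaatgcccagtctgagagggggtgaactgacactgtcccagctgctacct

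Pyruvate kinase RNA from Pkm (ENSMUSG00000032294, chr9:59656368-59679375, plus strand), which yields both the M1 form of muscle and brain and the M2 form of proliferating cells by splicing, had levels of 1350, 1301, 1485, 1144 and 630 FPKM for Ldha-null tumors 1 to 5. Wild-type tumors 1 to 5 had 769, 710, 602, 955 and 1571 FPKM. Its whole range in FPKM was 2.61-fold, the narrowest of the 10 genes over all tumors. Ldha-null tumor 1 ranked 3 of 10 in FPKM, at 1.41 times the median of the others. On log2 CPM with TMM factors it was highest, at 12.5, against 12.0 in both Ldha-null tumor 3 and wild-type tumor 5. Of the Ldha-null tumors, 4 of 5 were above 4 of the 5 wild-type tumors, with Ldha-null tumor 5 and wild-type tumor 5 the exceptions. The means were 1182 ± 148 and 922 ± 172 FPKM, the log2 fold change was 0.60 (95% interval -0.44 to 1.64), and the value on dropping Ldha-null tumor 1 was 0.32. Counts per gene do not separate the M1 and M2 forms, so an exchange between them would not be visible. Pklr, the pyruvate kinase of liver and red cells, was listed at 0 FPKM in 7 tumors and at no more than 0.505 FPKM in the others.

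To ask whether loss of Ldha was accompanied by another choice of isoform, each gene was first tested between the labels over all 15176 genes. None of the 10 genes passed, with an adjusted p of 0.999 for each (edgeR quasi-likelihood test, Benjamini-Hochberg), and of all genes 0 passed, or 0.0%. In simulated counts this fit recovered 0% of 2-fold, 16% of 4-fold and 61.2% of 8-fold changes. A gene that did not pass was therefore not shown to be unchanged. Of the 10, 3 (Pfkm, Aldoa and Eno3) had an unadjusted p under 0.05, all higher in tumors labelled Ldha-null, while over all genes 601 of 15176, or 3.96%, had one (3.56% higher and 0.395% lower). Fold changes were positive for 5 and negative for 5 genes, with a median of 0.29 against 0.02 for all genes. Without Ldha-null tumor 1 no member had an unadjusted p under 0.05, against 194 of 15510 genes, or 1.25%. Fold changes then ranged from -0.78 to 0.32, with 3 positive and 7 negative and a median of -0.23 against -0.01 for all genes. Exact two-sided permutation tests on log2 CPM, which give equal weight to every tumor, returned p from 0.246 for Pkm to 0.960 for Pfkp (smallest possible p = 0.00794), with 0.770 for Aldoa, 0.802 for Pfkm and 0.817 for Eno3. The genotypes overlapped for 10 of the 10 genes, where 28 of all genes, or 0.185%, did not overlap.

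**Figure D3:**
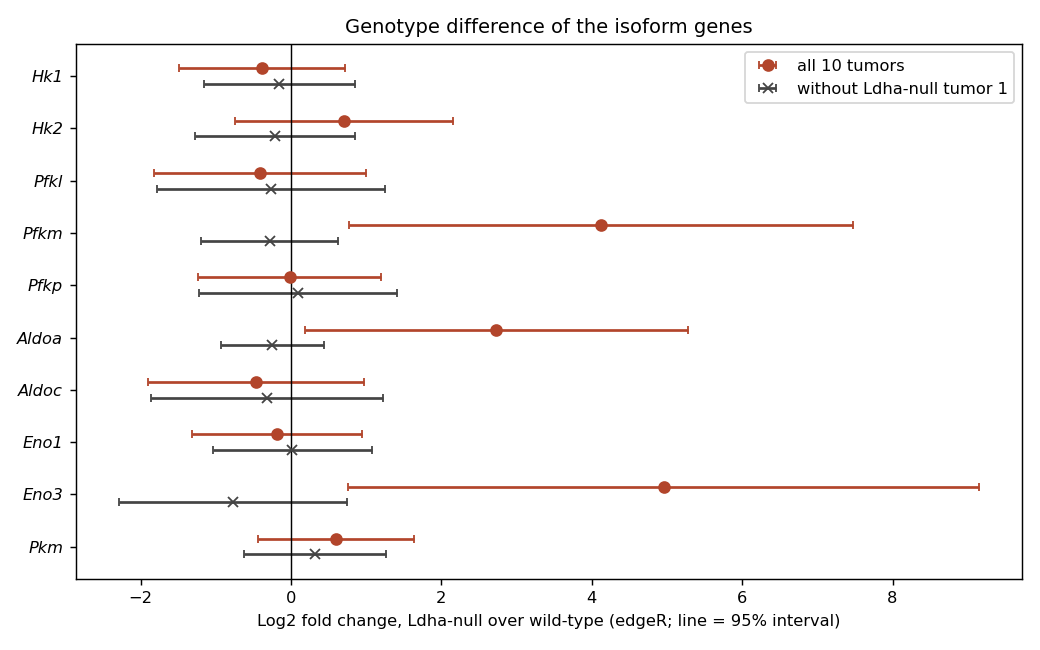
Log2 fold change of Ldha-null over wild-type tumors for the 10 isoform genes, with 95% intervals from edgeR, for all 10 tumors (red circles) and without Ldha-null tumor 1 (black crosses). Pfkm, Aldoa and Eno3 lie at 4.12, 2.73 and 4.96 in the full set and at -0.28, -0.25 and -0.78 in the smaller one, where the intervals of all 10 genes include 0.

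Isoform shares were compared in the same way, as the log2 ratio of an isoform to the other isoforms of its enzyme. Hk2 made 48.9% ± 12.0 of hexokinase in Ldha-null and 39.9% ± 5.59 in wild-type tumors, and its log2 ratio differed by 0.75 (exact two-sided permutation test, p = 0.619, n = 5 each). Pfkl made 46.8% ± 11.3 against 58.1% ± 4.34 of phosphofructokinase, a difference of -1.10 in the log2 ratio (exact permutation p = 0.476). Pfkm made 28.3% ± 16.7 against 14.0% ± 3.27, a difference of 1.10 (exact permutation p = 0.746), and Pfkp 25.0% ± 6.58 against 27.9% ± 3.87, a difference of -0.65 (exact permutation p = 0.706). These means hide the tumor that carries them, since without Ldha-null tumor 1 the Ldha-null means were 38.0% for Hk2, 57.6% for Pfkl, 11.7% for Pfkm and 30.7% for Pfkp, each within 3 percentage points of wild type. Aldoc made 0.530% ± 0.207 against 0.683% ± 0.220 of aldolase (difference -1.13, exact permutation p = 0.5). Eno3 made 21.0% ± 18.3 against 4.25% ± 1.24 of enolase (difference 1.22, exact permutation p = 0.770), and 2.69% ± 1.01 without Ldha-null tumor 1. Over the 6 shares the adjusted p was 0.770 for each in these exact tests, and no share separated the genotypes.

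The order of isoforms within an enzyme was then asked of all 10 tumors, each serving as its own pair. Pfkp was below Pfkl in 10 of 10 tumors, at 0.504 times its FPKM on average (mean log2 ratio -0.99 ± 0.17 SEM, exact sign-flip permutation test, p = 0.00195, the smallest that 10 tumors allow, adjusted over 6 pairs 0.00586). Aldoa exceeded Aldoc in 10 of 10, by 64.1-fold in wild-type tumor 5 to 9087-fold in Ldha-null tumor 1 (mean log2 ratio 7.99 ± 0.62, exact p = 0.00195, adjusted 0.00586). Eno1 exceeded Eno3 in 9 of 10 (mean log2 ratio 4.43 ± 1.07, exact p = 0.00586, adjusted 0.0117), by 12.4-fold to 322-fold in those 9, while in Ldha-null tumor 1 Eno3 was the higher. For the other pairs the spread between tumors was too large for an order. Pfkl exceeded Pfkm in 9 of 10 (mean log2 ratio 1.74 ± 0.83, exact p = 0.0625, adjusted 0.0938), Pfkp exceeded Pfkm in 8 of 10 (0.75 ± 0.80, exact p = 0.367, adjusted 0.441), and Hk2 exceeded Hk1 in 3 of 10 (-0.23 ± 0.48, exact p = 0.691, adjusted 0.691). Leaving out Ldha-null tumor 1 moved these 3 mean log2 ratios to 2.46 (exact p = 0.00391), 1.44 (exact p = 0.00781) and -0.67 (exact p = 0.0312), unadjusted over 9 tumors.

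The order between isoforms depends on the transcript length by which the authors divided. For 5 of the 10 genes (Pfkl, Pfkm, Pfkp, Aldoa and Pkm) that length was not within 1% of the mean transcript length of GENCODE M21. The length recovered from counts and FPKM was the same in all tumors and was shorter than the listed gene length, which exceeded it by a factor of 1.01 for Pfkm and up to 3.30 for Hk1, with Pkm equal. With the listed length instead, Pfkp stayed below Pfkl in 10 of 10 tumors (mean log2 ratio -1.005). Aldoa and Eno1 stayed above their partners in 10 and 9 tumors (8.73 and 4.15). The mean log2 ratio of Hk2 to Hk1 changed sign (0.26), though Hk2 was still the higher in only 3 of 10 tumors. That of Pfkp to Pfkm changed sign too (-0.71), with Pfkp the higher in 3 of 10. Pfkl still exceeded Pfkm in 9 of 10 tumors, but by a mean of 0.29 only. Order was therefore resolved for Pfkl over Pfkp, Aldoa over Aldoc and Eno1 over Eno3, and not for the hexokinases or for Pfkm against the other phosphofructokinases.

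**Figure D4:**
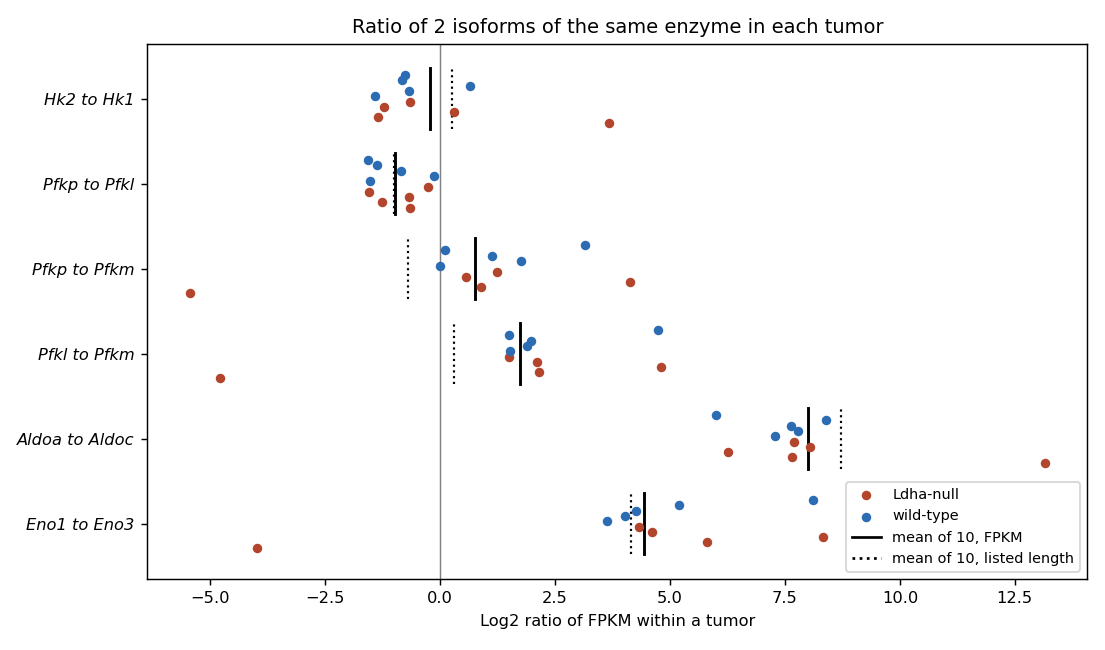
Log2 ratio of the FPKM of a pair of isoforms within each tumor, 6 pairs in rows, Ldha-null tumors in red and wild-type tumors in blue, with the mean of 10 tumors as a solid line and the mean with listed gene lengths as a dotted line. All 10 tumors lie below 0 for Pfkp to Pfkl and above 0 for Aldoa to Aldoc, and Ldha-null tumor 1 is the only tumor below 0 for Pfkl to Pfkm and for Eno1 to Eno3.

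Beyond the tumor with muscle markers, the pair with high keratinocyte markers, 1 of each genotype, also lay apart for several isoforms. In FPKM, Ldha-null tumor 3 and wild-type tumor 5 both lay above all 7 remaining tumors for Hk2, Pfkl, Pfkp, Aldoc and Pkm, and below all 7 for Pfkm and Eno3. Of all 15176 tested genes, 10.7% lay above and 25.9% below all 7 in both tumors, or 36.6% in either direction, so a separation of this kind was common in this pair. Against the median of those 7, Pfkl was 2.14-fold higher in Ldha-null tumor 3 and 4.43-fold higher in wild-type tumor 5, Pfkp 2.89-fold and 3.21-fold, Aldoc 3.30-fold and 5.14-fold, Hk2 1.85-fold and 2.49-fold, and Pkm 1.93-fold and 2.04-fold. Pfkm was 3.33-fold and 1.52-fold lower. Hk1, Aldoa and Eno1 of Ldha-null tumor 3 lay within the range of the 7, at 0.951, 0.874 and 1.49 times their median, and in wild-type tumor 5 Aldoa and Eno1 did so too, whereas Hk1 was 2.66-fold higher there. The summed skeletal muscle markers were also lowest in these 2 tumors, at 53.2 and 56.1 FPKM against 90.8 to 279 FPKM in the 7. Their 4 leukocyte markers summed to 741 and 350 FPKM, against 1228 to 4596 FPKM in the 7. Their 3 adipocyte markers summed to 1006 and 950.2 FPKM, and those of Ldha-null tumor 1 to 716 FPKM, against 12.2 to 162 FPKM in the 7. The part of these markers, and of the keratinocyte and mesenchymal ones, in these differences was not tested. With all 3 tumors left out, leaving 3 Ldha-null and 4 wild-type tumors, the log2 fold changes were 0.31 for Hk1, -0.27 for Hk2, 0.18 for Pfkl, -0.14 for Pfkm, -0.04 for Pfkp, -0.29 for Aldoa, -0.39 for Aldoc, -0.14 for Eno1, -0.74 for Eno3 and 0.37 for Pkm, and none passed.

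Other isoforms of these enzymes were mostly scarce. Hk3, the hexokinase of leukocytes, ranged from 0.801 to 23.9 FPKM, lowest in wild-type tumor 5 and Ldha-null tumor 1 and highest in wild-type tumor 3. Hkdc1 stayed at or below 0.515 FPKM. Eno2, the neuronal enolase, had 1.67, 7.09, 3.58, 41.7 and 22.6 FPKM across Ldha-null tumors 1 to 5. It had 61.4, 12.2, 39.7, 26.4 and 3.94 FPKM across the wild-type tumors. Its log2 fold change was -0.92 (95% interval -2.69 to 0.86). Here too the 3 tumors that stood apart in markers went together, as the 3 lowest. Eno1b, a near copy of Eno1 between which reads may be divided, reached 316 FPKM in wild-type tumor 5, against 0.233 to 5.53 FPKM elsewhere, and Eno4 stayed at or below 0.811 FPKM.

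Of 23 other glycolysis genes, 22 were in the tables and 16 were tested, of which 0 passed. Fold changes were positive for 11 and negative for 5, with a median of 0.55 (all genes 0.02), and without Ldha-null tumor 1 positive for 6 and negative for 10, with a median of -0.08. The 3 with an unadjusted p under 0.05, Pgam2 at 6.71, Pfkfb1 at 2.09 and Bpgm at 1.88 on the log2 scale, are named for that after their values were seen. Pgam2, the muscle phosphoglycerate mutase, reached 1191 FPKM in Ldha-null tumor 1, against 2.48 to 5.16 FPKM elsewhere. Pgam1, its counterpart in most tissues, had 45.1 FPKM there, against 159 to 586 FPKM elsewhere, an exchange like that of Eno3 and Eno1. Bpgm, which makes the bisphosphoglycerate of red cells, reached 280 FPKM in Ldha-null tumor 3, the tumor with high erythroid markers, against 13.8 to 56.3 FPKM elsewhere. Pfkfb1, an enzyme that sets the level of a bisphosphate activator of phosphofructokinase, reached 24.0 FPKM in Ldha-null tumor 1, against 1.37 to 4.37 FPKM elsewhere. Among steps with a main isoform, Gapdh reached 18824 FPKM in Ldha-null tumor 1, against 2698 to 6789 FPKM. The same comparison gave Tpi1 at 2740 against 520 to 1631 FPKM, Gpi1 at 705 against 247 to 469 FPKM and Pgk1 at 650 against 106 to 638 FPKM. All 4 were highest in that tumor, and their log2 fold changes were 0.96, 0.77, 0.40 and 0.69, none of which passed.

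Among 7 regulators of glycolytic genes and of Pkm splicing, 0 passed, 0 had an unadjusted p under 0.05, and the median log2 fold change was -0.03. Hif1a, the oxygen-regulated subunit of hypoxia-inducible factor, had 15.3, 62.8, 101, 42.9 and 51.1 FPKM across Ldha-null tumors 1 to 5, and 48.0 to 79.5 FPKM across the wild-type tumors (log2 fold change -0.03, 95% interval -0.88 to 0.82). Myc, which activates many glycolytic genes, had 9.09 FPKM in Ldha-null tumor 1, against 35.9 to 95.8 FPKM elsewhere. In FPKM, the splicing repressors that favour the M2 form of Pkm were lowest in the same tumor. Ptbp1 was at 19.5 FPKM against 70.3 to 195 FPKM, Hnrnpa1 at 75.7 against 168 to 318 FPKM and Hnrnpa2b1 at 144 against 176 to 386 FPKM. FPKM are not corrected for library make-up, so the narrow margin of Hnrnpa2b1 does not resolve its rank in this tumor. Pkm itself was not low there, at 1350 FPKM.

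Correlations of log2 CPM across the 10 tumors are given as a description, since all genes share the same libraries and the tumors that stand apart. Between members, Spearman's rho of log2 CPM was highest for Pfkl with Eno1 (0.867), followed by Pfkm with Eno3 and Hk2 with Aldoa (both 0.782), and lowest for Eno1 with Eno3 (-0.673). Over all tested genes, the closest to Pfkm was Asb8 (0.988), which lies 2189 bases from it on chromosome 15, and the closest to Aldoa was Gpi1 (0.964), the isomerase that makes fructose phosphate upstream in the pathway. The closest to Hk2 was Egln1 (0.988), an oxygen-sensing prolyl hydroxylase that is itself a hypoxia target. Hk1 was closest to Ckap4 (0.988), Pfkl to Ctu1 (0.964), Pfkp to Tnfsf9 (0.927), Aldoc to Ddx27 (0.927), Eno1 to Tuba1c (a rho of 1), Eno3 to Rbfa (0.988) and Pkm to Sel1l3 (0.988). None of these nearest genes was itself a skeletal muscle marker of the list.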

How the data were processed

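RNA of 10 fresh mouse tumors, 5 labelled Ldha-null and 5 wild-type, was enriched with oligo(dT) and sequenced on a HiSeq2500. Per the labels and methods, bases were called with CASAVA 1.8, reads were mapped to mm10 with TopHat2 allowing 2 mismatches, and the authors counted reads per gene with HTSeq in union mode. Neither the TopHat2 and HTSeq versions nor the annotation release is given in the sources used here. The deposited tables hold raw counts per gene and the FPKM that the authors derived from them. Total counts per tumor were 12969508 to 17694201, and the member with the fewest counts had 45.

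Counts were tested with edgeR 4.0.16 in R 4.3.3 (quasi-likelihood, TMM factors, filterByExpr with a minimum count of 10 and total of 15, Benjamini-Hochberg over 15176 genes, threshold 0.05), without the replicate number as a block. The 10 members and all gene lists were chosen with earlier results of these data known. The text names all 10 members, other isoforms of the 5 enzymes, listed genes at a mean of at least 50 FPKM, and for each member the tested gene of highest Spearman correlation, and some items under this rule are not reported here. Isoform shares and ratios used FPKM without a pseudocount, with exact permutation of the labels, or of signs within tumors, over all arrangements. The length behind FPKM was recovered as counts over FPKM and equalled the mean GENCODE M21 transcript length within 1% for 64.0% of 24921 genes, but not for Pfkl, Pfkm, Pfkp, Aldoa and Pkm. Promoters came from RefSeq (GRCm38.p6), and no protein sequences were used. Log2 CPM used a prior count of 2. Alternatives were DESeq2 1.42.0, limma 3.58.1 with sample weights, other factors and filters, the block, listed lengths, and leaving out tumors. The edgeR fit and the label permutation test were first checked on simulated data. The sign-flip test was only checked against a reference implementation.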

Additional observations from a re-analysis of the deposited data

Results flagged for a closer look

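Within-group gaps were examined in 32 groups of 5 tumors (log2 CPM of the 10 genes and log2 ratios of 6 shares, by genotype), and 8 had an extreme tumor whose gap to its nearest neighbour exceeded 0.71 of the range of the group. For independent normal values chance flags about 1 in 20 groups, or 1.6 of 32. These groups share tumors and values, so 1 tumor can raise several flags, and the 8 were not tested against chance. Ldha-null tumor 1 was the extreme in 5 of the 8. It was the highest of its group for Pfkm (gap 0.752 of the range of log2 CPM) and Aldoa (0.861), and the lowest for the log2 share ratios of Pfkl (0.813), Pfkp (0.759) and Aldoc (0.743). Skeletal muscle markers took 14.2% of the counts of this tumor and at most 0.0314% of those of the others, and their part in these gaps was not tested. Ldha-null tumor 3 was the highest of its group for the log2 CPM of Pfkp (0.820) and Aldoc (0.812). Wild-type tumor 5 was the lowest of its group for the share ratio of Pfkm (0.728). Eno3, with the widest range, had no such gap, since Ldha-null tumor 3 widened its group at the low end.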

How the results depend on the processing

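No member passed under any alternative that tested it. DESeq2 gave no p for Pfkm, Aldoa and Eno3 (log2 fold changes 4.08, 2.69 and 4.92), which were therefore not tested there. The orders Pfkp below Pfkl, Aldoa above Aldoc and Eno1 above Eno3 kept their direction and threshold in all alternatives run. DESeq2 called 1 gene, which was no member, and every other fit 0. Replicate numbers did not pair the tumors (correlations of same-numbered deviations 0.55 to -0.51). With the replicate block 0 genes were called, 120 had an unadjusted p under 0.05, the log2 fold changes of Pfkl (0.0169) and Pfkp (0.0837) reversed, and those of Hk2, Pfkm, Aldoa and Eno3 moved from 0.71, 4.12, 2.73 and 4.96 to 0.22, 0.399, 0.43 and 0.61. With limma-voom sample weights Hk1 (0.0750), Hk2 (-0.11), Pfkm (-0.12), Pfkp (0.0846), Aldoa (-0.14) and Eno3 (-0.56) reversed. With listed lengths the mean log2 ratios of Hk2 to Hk1 (0.26) and Pfkp to Pfkm (-0.71) reversed. The share differences of Pfkl and Pfkp moved from -1.10 and -0.65 to -1.20 and -0.81.

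When the 3 tumors that stood apart in markers (Ldha-null 1 and 3, wild-type 5) were left out, a choice made after seeing the data, fold changes of Hk1 (0.31), Hk2 (-0.27), Pfkl (0.18), Pfkm (-0.14), Aldoa (-0.29) and Eno3 (-0.74) and share differences of Hk2 (-0.51), Pfkl (0.14), Pfkm (-0.18) and Eno3 (-0.64) reversed, and Hk2 to Hk1 (-0.79, exact p = 0.0312), Pfkp to Pfkm (0.81, exact p = 0.0312) and Pfkl to Pfkm (1.804, exact p = 0.0156) passed. Apart from the tumors and weights themselves, the cause was not tested.

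Leaving out each tumor in turn gave 0 to 0 genes called and log2 fold changes of -0.70 to 0.0329 (Hk1), -0.21 to 1.02 (Hk2), -0.84 to 0.54 (Pfkl), -0.28 to 4.44 (Pfkm), -0.60 to 0.61 (Pfkp), -0.25 to 3.02 (Aldoa), -1.16 to 0.32 (Aldoc), -0.55 to 0.0157 (Eno1), -0.78 to 5.28 (Eno3) and 0.32 to 0.93 (Pkm). Share differences were -0.13 to 1.13 (Hk2), -1.45 to -0.04 (Pfkl), -0.37 to 2.03 (Pfkm), -0.997 to 0.20 (Pfkp), -1.71 to 0.0141 (Aldoc) and -0.73 to 2.35 (Eno3). Mean log2 ratios were -0.67 to -0.10 (Hk2 to Hk1), -1.08 to -0.92 (Pfkp to Pfkl), 0.37 to 1.44 (Pfkp to Pfkm), 1.40 to 2.46 (Pfkl to Pfkm), 7.42 to 8.21 (Aldoa to Aldoc) and 3.99 to 5.36 (Eno1 to Eno3). Depth limits Aldoc most, with 45 to 383 counts per tumor.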
